A study of Mus musculus with 6 samples.

Results

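The unfolded protein response is the programme by which cells answer the build-up of misfolded proteins in the endoplasmic reticulum (ER). Sensors in the ER membrane, among them IRE1, PERK and ATF6, detect the load and act on transcription and translation. ATF6 and the spliced form of XBP1 raise ER chaperones and degradation factors, while PERK phosphorylates the translation factor eIF2 and thereby favours translation of ATF4, which acts on DDIT3 (CHOP) and TRIB3. Fibroblasts, which secrete collagen and other matrix proteins, use these chaperones without added stress as well.

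A set of 10 genes of this response was followed by gene symbol in mouse NIH3T3 fibroblasts, out of 24062 gene symbols counted. All 10 were found once in each library and all 10 passed the filter on low counts, as did 13185 of all symbols. The set comprised the chaperone and folding genes Hspa5, Hyou1, Dnajb9, Sdf2l1 and Pdia4, the degradation gene Herpud1, and the regulators Xbp1, Atf4, Ddit3 and Trib3.

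The study set siRNA against SPT6, a transcription elongation factor and histone chaperone encoded by Supt6, beside negative control (NC) siRNA, with and without interferon beta (IFN-beta). The 4 groups were SPT6 siRNA with IFN-beta (2 libraries), NC siRNA with IFN-beta (2 libraries), SPT6 siRNA untreated (1 library) and NC siRNA untreated (1 library). The cells of every library were transfected with Lipofectamine 2000, with 48 h given for the siRNA, and the IFN-beta groups had IFN-beta (100 units/ml) for 4 h. Untreated cells are titled as 0 h, so the 4 h of culture cannot be told apart from IFN-beta. The labels name 1 siRNA against SPT6 and 1 negative control, so an effect of SPT6 loss cannot be told apart from one of that siRNA's sequence. They do not say whether replicates were separate cultures, so p-values measure the spread between these libraries, which may be technical.

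Counts in genes ran from 7935961 to 17596498 per library and were lower with SPT6 siRNA in each of the 3 pairs of equal treatment and replicate number. Values below are CPM, counts per 1000000 counts after scaling by library size and TMM factors. Such values are relative to the other genes of a library, so a change in all RNA of a cell would not show in them. Supt6 stood at 108 and 88.4 CPM with SPT6 siRNA and IFN-beta, against 177 and 189 CPM with NC siRNA and IFN-beta. Untreated, it stood at 101 CPM with SPT6 siRNA and 175 CPM with NC siRNA. Of 5 epithelial markers, Epcam and Cldn4 were at 0 in all libraries, while Krt8, Krt18 and Cdh1 had at most 7 counts in any library. Of the fibroblast markers, 8 of 8 were present. The fibroblast genes summed to 12482 to 13967 CPM in the 3 SPT6 siRNA libraries and to 16774 to 19035 CPM in the 3 NC siRNA libraries. Over 6 macrophage markers the sum was 9.71 to 13.3 CPM with SPT6 siRNA and 3.68 to 5.8 CPM with NC siRNA. The markers did not move together. Cd68 ran from 6.47 to 9.92 CPM with SPT6 siRNA and from 2.20 to 2.71 CPM with NC siRNA. Itgam had at most 7 counts with SPT6 siRNA and 0 with NC siRNA, while Csf1r, Ptprc, Lyz2 and Adgre1 overlapped between the siRNAs. Of the endothelial markers, Vwf ran from 1.73 to 4.09 CPM with SPT6 siRNA and from 0.356 to 0.904 CPM with NC siRNA. It had 6 to 47 counts per library, and Pecam1, Cdh5, Kdr and Tek overlapped between the siRNAs. The part of these differences in the results below was not tested. In such bulk samples fewer cells of a type and less RNA per cell cannot be told apart.

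Promoters are shown because the letters through which this response is known to act can be read in them. For 9 of the 10 genes, RefSeq (GRCm38.p6) gave the bases before its start site, and 250 of them were searched on both strands. RefSeq start sites can differ from the gene positions given further below, which are from another annotation. By those positions the Dnajb9 window lies within the gene, and the Hspa5 and Ddit3 windows reach into it. The ER stress response element was searched as CCAAT and CCACG with 9 bases between them, its second form as ATTGG and CCACG with 1 base between them, the XBP1 element as TGACGTGG, and the core of the ATF4 and C/EBP element as TTGCATCA. Exact matches were found in Hspa5 and Herpud1, and they are in capitals below. The upstream sequences of Dnajb9, Xbp1, Atf4 and Ddit3 follow as well. For each of these genes, and for Herpud1, all SPT6 siRNA libraries lay to one side of all NC siRNA libraries. Unlike Herpud1, Dnajb9, Xbp1, Atf4 and Ddit3 held none of the 4 motifs in this window, which says nothing of the factors themselves.
Hspa5 (chr2:34771840-34772089, plus strand): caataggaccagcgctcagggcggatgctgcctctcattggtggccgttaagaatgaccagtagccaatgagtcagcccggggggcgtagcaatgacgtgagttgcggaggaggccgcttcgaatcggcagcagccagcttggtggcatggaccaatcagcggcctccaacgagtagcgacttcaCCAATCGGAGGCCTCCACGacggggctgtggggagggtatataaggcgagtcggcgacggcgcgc
Herpud1 (chr8:94386179-94386428, plus strand): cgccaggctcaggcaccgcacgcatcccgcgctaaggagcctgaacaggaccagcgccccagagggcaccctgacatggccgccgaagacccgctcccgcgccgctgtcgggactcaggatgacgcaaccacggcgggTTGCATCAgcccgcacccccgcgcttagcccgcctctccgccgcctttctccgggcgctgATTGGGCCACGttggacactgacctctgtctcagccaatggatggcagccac
Dnajb9 (chr12:44210069-44210318, minus strand): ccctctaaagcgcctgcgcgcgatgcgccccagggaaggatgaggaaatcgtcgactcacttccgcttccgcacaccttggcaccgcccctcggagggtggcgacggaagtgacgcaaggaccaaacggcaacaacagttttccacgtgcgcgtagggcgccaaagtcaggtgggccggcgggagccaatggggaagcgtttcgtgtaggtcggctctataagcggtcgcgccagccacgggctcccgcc
Xbp1 (chr11:5520391-5520640, plus strand): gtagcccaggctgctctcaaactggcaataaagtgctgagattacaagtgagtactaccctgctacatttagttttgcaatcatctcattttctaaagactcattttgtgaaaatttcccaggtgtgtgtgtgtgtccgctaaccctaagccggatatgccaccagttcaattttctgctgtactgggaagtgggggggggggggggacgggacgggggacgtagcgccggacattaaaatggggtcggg
Atf4 (chr15:80254934-80255183, plus strand): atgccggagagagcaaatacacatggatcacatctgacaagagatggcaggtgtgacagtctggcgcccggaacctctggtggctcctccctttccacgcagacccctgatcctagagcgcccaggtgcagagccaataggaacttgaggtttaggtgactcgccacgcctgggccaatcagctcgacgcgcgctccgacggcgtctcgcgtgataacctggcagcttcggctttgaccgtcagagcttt
Ddit3 (chr10:127290543-127290792, plus strand): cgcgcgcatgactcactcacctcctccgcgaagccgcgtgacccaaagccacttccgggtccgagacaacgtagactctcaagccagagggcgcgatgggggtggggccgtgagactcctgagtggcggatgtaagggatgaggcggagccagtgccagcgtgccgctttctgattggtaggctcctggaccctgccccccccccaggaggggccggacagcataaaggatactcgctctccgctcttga

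The Hspa5 match to the ER stress response element lay 65 to 47 bases before the start site, and 0.113% of 32851 promoters of the same length held one. The Herpud1 match to the second form lay 52 to 42 bases before the start site (0.0304% of promoters), and its match to the ATF4 and C/EBP core 112 to 105 bases before it (0.791%). None of the 9 promoters held the XBP1 element, found in 0.563% of all. The shorter parts of the first element, which overlap it, were common: CCAAT was present in 7 of the 9 and in 33.8% of all promoters, and CCACG in 5 of the 9 and in 28.3%.

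Levels between genes were compared as CPM per kilobase of merged exons (GENCODE M21), over all 6 libraries. Hspa5, which encodes the main ER chaperone BiP, was highest at a mean of 229 CPM per kilobase (166 to 274). Atf4 followed at a mean of 139 (102 to 173) and Pdia4 at 106 (96.0 to 119). Xbp1, Hyou1 and Herpud1 lay between means of 27.8 and 21.9, and Ddit3, Dnajb9 and Sdf2l1 between 11.3 and 9.81. Trib3 was lowest at 5.01 (2.48 to 8.88). Ranges of neighbours overlapped everywhere in this order except between Pdia4 and Xbp1 and between Herpud1 and Ddit3, so the genes formed a high, a middle and a low group.

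**Figure D1:**
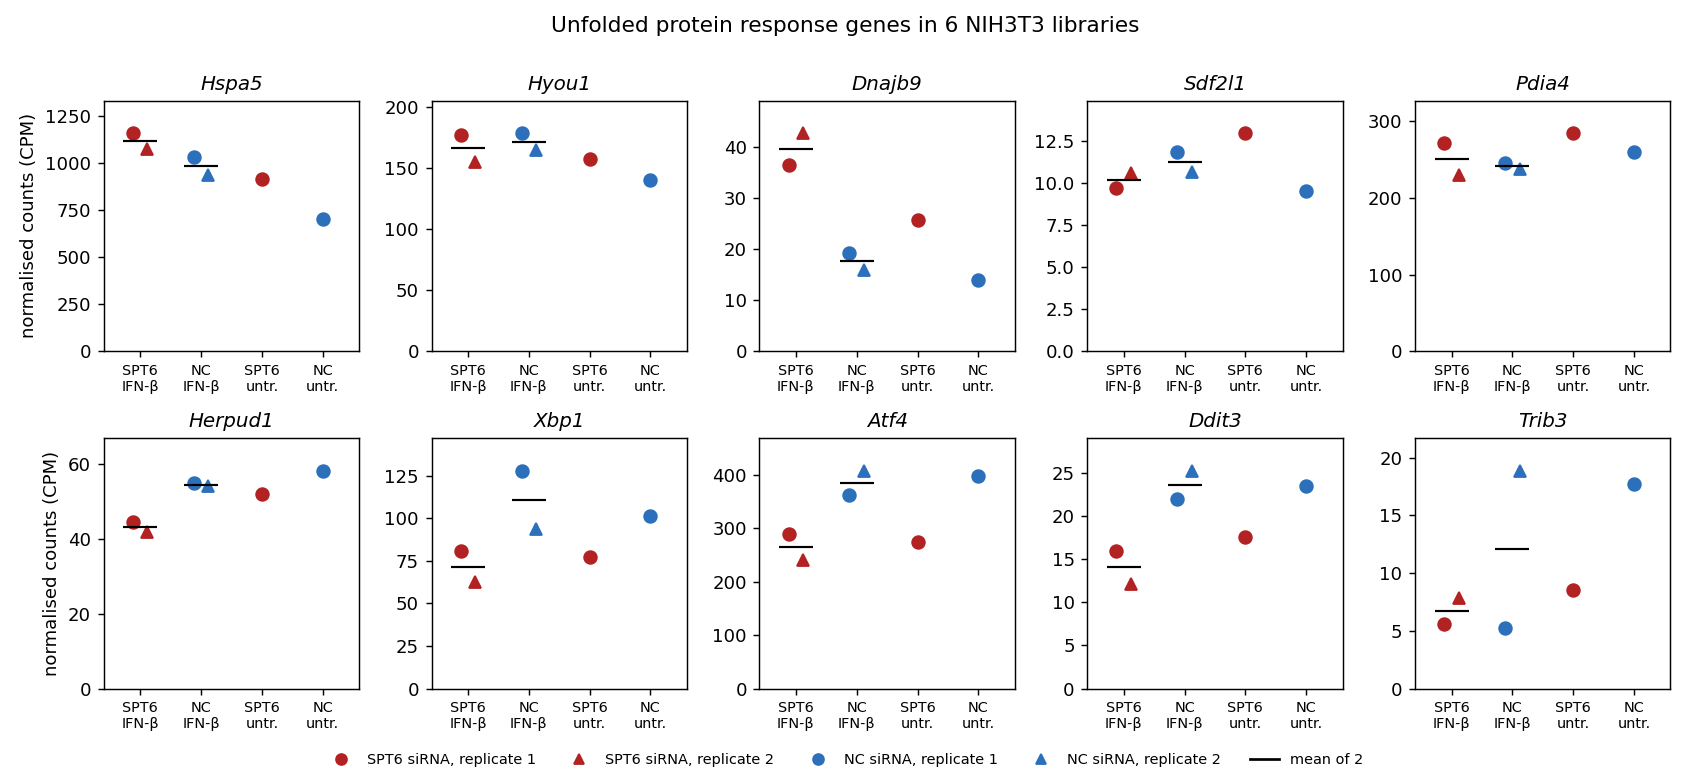
Normalised counts (CPM, y axis from 0) of the 10 genes in each library, by siRNA and treatment; circles are replicate 1, triangles replicate 2, lines the mean of 2 libraries. Dnajb9 lies at 25.7 to 42.7 CPM in the 3 SPT6 siRNA libraries and at 14.0 to 19.2 CPM in the 3 NC siRNA libraries, while Herpud1, Xbp1, Atf4 and Ddit3 lie lower in all 3 SPT6 siRNA libraries than in any NC siRNA library.

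The replicated comparison asked how the genes stood with SPT6 siRNA against NC siRNA in cells given IFN-beta. The co-chaperone gene Dnajb9 was about 2.25 times as high with SPT6 siRNA, whereas the regulators Xbp1, Atf4 and Ddit3 were at 0.645, 0.686 and 0.594 times the NC level. The chaperone genes Hspa5, Hyou1, Sdf2l1 and Pdia4 lay within 0.905 to 1.14 times it. None of these differences passed the edgeR quasi-likelihood test over all genes: 0 of 10 were called at a Benjamini-Hochberg adjusted p under 0.05, as were 0 of 13185 genes in all (0%). The targeted gene Supt6 was not called either, with a log2 difference of -0.90 ± 0.18 (SE; adjusted p = 0.247). With 2 residual degrees of freedom, a gene left uncalled may still differ. Other settings, some calling more of the 10, are given in the last section. At an unadjusted p under 0.05 there were 4 of the 10, with Dnajb9 higher and Xbp1, Atf4 and Ddit3 lower, against 11.7% of all genes. The 10 genes were chosen with earlier results of these data known. Their shares set beside all genes, here and below, are therefore descriptive only. DESeq2 called Dnajb9 (adjusted p = 0.0495) and none of the other 9, against 0.441% of the genes it tested. With SPT6 siRNA 2 of the 10 lay above NC siRNA in both libraries (Hspa5 and Dnajb9), where 22.7% of genes did, and 5 below (Sdf2l1, Herpud1, Xbp1, Atf4 and Ddit3), where 21.3% did. The median log2 difference of the 10 was -0.24, beside -0.017 over all genes tested, and 7 of the 10 were below 0, against 52% of all genes. With 1 IFN-beta library left out the median ran from -0.28 to -0.16. Untreated it was -0.019, with 5 of the 10 below 0, against 52.2% of all genes.

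Of the ER chaperones, Dnajb9 (ERdj4), which binds BiP and is known as a repressor of IRE1, differed most (chromosome 12, 44205559 to 44210326, minus strand, GRCm38). It stood at 36.4 and 42.7 CPM with SPT6 siRNA, against 19.2 and 16.0 CPM with NC siRNA, from 357 and 491 counts against 255 and 269. The lower SPT6 siRNA library was thus well above the higher NC siRNA library, and the log2 difference was 1.17 ± 0.21 (SE; adjusted p = 0.238). Leaving out each of the 4 IFN-beta libraries gave values from 1.04 to 1.32. Each of those fits had 1 library in an arm and took its spread from the other IFN-beta group, so their p-values say little of stability.

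Hspa5 (chromosome 2, 34771970 to 34777547, plus strand) stood at 1158 and 1076 CPM with SPT6 siRNA and at 1032 and 935 CPM with NC siRNA. The groups did not overlap, but the log2 difference of 0.18 ± 0.19 (SE) was smaller than its error (adjusted p = 0.747). Within a library, where no scaling enters, there were 3.14 and 3.97 Dnajb9 counts per 100 Hspa5 counts with SPT6 siRNA, against 1.86 and 1.71 with NC siRNA. In untreated cells the ratio was 2.81 with SPT6 siRNA and 1.99 with NC siRNA, so all 3 SPT6 siRNA libraries lay above all 3 NC siRNA libraries. This ratio was not tested.

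Hyou1, an ER chaperone of the HSP70 family that acts as an exchange factor for BiP (chromosome 9, 44379490 to 44392369), stood at 178 and 156 CPM with SPT6 siRNA, against 179 and 165 CPM with NC siRNA. Pdia4, a protein disulfide isomerase (chromosome 6, 47796141 to 47813430), stood at 272 and 230.2 CPM with SPT6 siRNA, against 245 and 237 CPM with NC siRNA. Both genes overlapped between the siRNAs, with log2 differences of -0.046 ± 0.17 and 0.058 ± 0.17 (SE). For Hyou1 the value turned to 0.037 when libraries were scaled by size only.

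Sdf2l1, a partner of ER HSP40 co-chaperones (chromosome 16, 17130138 to 17132383), was low, at 95 and 122 counts with SPT6 siRNA and 157 and 179 counts with NC siRNA. These came to 9.69 and 10.61 CPM with SPT6 siRNA, against 11.8 and 10.62 CPM with NC siRNA. The groups did not overlap only by the margin between 10.61 and 10.62, and the log2 difference was -0.14 ± 0.23 (SE). Herpud1, an ER membrane protein of ER-associated degradation (chromosome 8, 94386438 to 94395377), stood at 44.6 and 41.9 CPM with SPT6 siRNA, against 55.0 and 54.2 CPM with NC siRNA. Here both SPT6 siRNA libraries were the lower ones, with a log2 difference of -0.34 ± 0.17 (SE; adjusted p = 0.492).

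Among the regulators, Xbp1 (chromosome 11, 5520659 to 5525893), whose mRNA IRE1 splices, stood at 80.4 and 62.3 CPM with SPT6 siRNA, against 128 and 93.4 CPM with NC siRNA. Every SPT6 siRNA library was below every NC siRNA library, and replicate 2 was the lower one under both siRNAs. The log2 difference was -0.63 ± 0.23 (SE; adjusted p = 0.377). Counts per gene do not separate the spliced from the unspliced form.

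Atf4 (chromosome 15, 80255184 to 80257541), the transcription factor of the PERK branch, stood at 288 and 239.5 CPM with SPT6 siRNA, against 362 and 408 CPM with NC siRNA. Its log2 difference was -0.54 ± 0.19 (SE; adjusted p = 0.374), with no overlap. Ddit3 (chromosome 10, 127290774 to 127296288), which encodes the pro-apoptotic factor CHOP, stood at 16.0 and 12.1 CPM with SPT6 siRNA, against 22.0 and 25.3 CPM with NC siRNA. Its log2 difference was -0.75 ± 0.23 (SE; adjusted p = 0.356), again with no overlap. The annotation places 68 exonic bases of Ddit3 opposite Mars and 105 within another gene of the same symbol, so some of its reads may be assigned elsewhere or left out. For both genes the lowest SPT6 siRNA value and the highest NC siRNA value were in replicate 2. Per 100 Atf4 counts there were 5.55 and 5.05 Ddit3 counts with SPT6 siRNA, against 6.08 and 6.2 with NC siRNA. Untreated, the ratio ran the other way, at 6.44 with SPT6 siRNA and 5.92 with NC siRNA.

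Trib3 (chromosome 2, 152337422 to 152344032), a pseudokinase that binds ATF4 and is known to limit this branch, stood apart through its spread. It had 5.61 and 7.83 CPM with SPT6 siRNA, against 5.27 and 18.9 CPM with NC siRNA, from 55 and 90 counts against 70 and 318. NC siRNA replicate 1 was therefore the lowest library of all and NC siRNA replicate 2 the highest. The log2 difference of -0.85 ± 0.60 (SE; adjusted p = 0.618) became 0.35 without NC siRNA IFN-beta replicate 2 and -1.47 without NC siRNA IFN-beta replicate 1. ATF4 target genes as a list also stood higher in replicate 2 with NC siRNA: the median of replicate 2 minus replicate 1 was 0.49 over 19 tested genes, with 16 above 0. With SPT6 siRNA that median was 0.081, with 12 above 0. Over all genes the medians were near 0 under both siRNAs, with 6826 of 13185 genes above 0 for NC siRNA and 6572 for SPT6 siRNA.

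**Figure D2:**
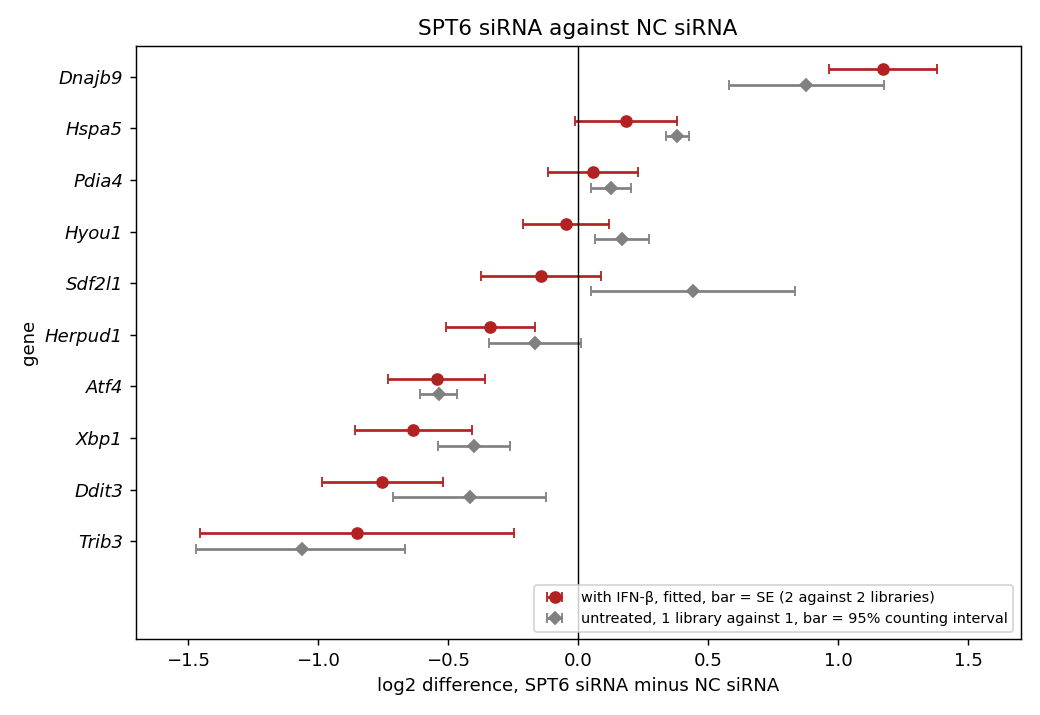
Log2 difference of SPT6 siRNA minus NC siRNA (x axis) for each gene (y axis); red circles are with IFN-beta (bar, SE of the fit over 2 against 2 libraries), grey diamonds are untreated (1 library against 1; bar, 95% counting interval). Dnajb9 lies highest in both (1.17 and 0.88) and Trib3 lowest in both (-0.85 and -1.06).

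In untreated cells 1 library stood against 1, so there was no replicate check and no test. Dnajb9 was again the highest of the 10 and Trib3 the lowest, and these were the 2 genes past 1.5-fold. Of 13168 genes with a value 15.8% passed it, 8.86% higher and 6.96% lower. Dnajb9 stood at 25.7 CPM with SPT6 siRNA, against 14.0 CPM with NC siRNA, a ratio of 1.84 (1.49 to 2.26, exact 95% binomial interval). Trib3 stood at 8.51 CPM with SPT6 siRNA, against 17.7 CPM with NC siRNA, a ratio of 0.48 (0.362 to 0.63). These intervals cover counting error only.

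The regulators lay below the NC siRNA library in untreated cells too. The ratio was 0.69 (0.656 to 0.725) for Atf4, at 274 CPM with SPT6 siRNA and 397 CPM with NC siRNA. For Xbp1 it was 0.759 (0.688 to 0.835), at 77.0 against 101 CPM, and for Ddit3 0.75 (0.61 to 0.918), at 17.6 against 23.5 CPM. Among the chaperones Hspa5 stood at 914 CPM with SPT6 siRNA, against 702 CPM with NC siRNA, a ratio of 1.3 (1.26 to 1.34). The ratios of Hyou1 and Pdia4 were 1.12 and 1.09, that of Herpud1 was 0.892, and that of Sdf2l1 was 1.36 (1.04 to 1.78).

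Across all 3 pairs of equal treatment and replicate number, 2 of the 10 genes were above NC siRNA each time (Hspa5 and Dnajb9), where 25.8% of all genes were. Another 4 were below each time (Herpud1, Xbp1, Atf4 and Ddit3), where 28.3% of all genes were. For Dnajb9 all 3 SPT6 siRNA libraries lay above all 3 NC siRNA libraries, as for 12.2% of genes, and for those other 4 genes they all lay below, as for 9.32% of genes. In an edgeR fit over 6 libraries with siRNA and treatment as separate terms, chosen after seeing the data, Dnajb9 was called higher by a log2 difference of 1.08 ± 0.16 (SE; adjusted p = 0.0341), among 0.903% of genes. The other 9 were not called. Atf4 (-0.54 ± 0.13, adjusted p = 0.0795) and Ddit3 (-0.64 ± 0.17, adjusted p = 0.102) came nearest.

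The difference between the SPT6 siRNA effects with and without IFN-beta was tested directly. None of the 10 genes was called (adjusted p = 1 for each), none reached an unadjusted p under 0.05, and of all genes 0% were called and 0.379% reached it. DESeq2 called none either. The largest of these differences was that of Sdf2l1, at -0.59 ± 0.40 (SE): its SPT6 siRNA effect was -0.14 with IFN-beta and 0.44 untreated. For Dnajb9 the difference was 0.29 ± 0.36 and for Atf4 -0.0075 ± 0.32.

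A further question was whether IFN-beta moved these genes. None of the 10 was called in either response by the edgeR test, where 0.0455% of genes were called with SPT6 siRNA and 0.137% with NC siRNA, and DESeq2 called none of them. At an unadjusted p under 0.05 there was only Dnajb9, which was higher with SPT6 siRNA, against 5.85% of genes (3.84% higher), and none with NC siRNA, against 8.24%. Each response set 2 libraries against 1 untreated library, which is assumed to vary like the others, and both share libraries with the siRNA comparisons.

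Hspa5 and Dnajb9 were above the untreated library in both IFN-beta libraries under both siRNAs, a pattern that 22.5% of genes showed. With SPT6 siRNA alone these were the 2 genes above it, against 34.5% of genes, and with NC siRNA alone Hyou1 and Sdf2l1 made them 4, against 35.2%. With SPT6 siRNA Dnajb9 stood at 36.4 and 42.7 CPM with IFN-beta, against 25.7 CPM untreated (log2 difference 0.62 ± 0.26, SE; adjusted p = 0.85). With NC siRNA it stood at 19.2 and 16.0 CPM with IFN-beta, against 14.0 CPM untreated (0.33 ± 0.26). For Hspa5 the log2 differences were 0.29 ± 0.24 with SPT6 siRNA and 0.49 ± 0.24 with NC siRNA. The values of Atf4 were -0.053 ± 0.23 and -0.046 ± 0.23, and those of Xbp1 -0.11 ± 0.28 and 0.12 ± 0.28.

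Sdf2l1 and Ddit3 leaned below the untreated library with SPT6 siRNA, by -0.35 ± 0.28 and -0.33 ± 0.29, while with NC siRNA they stood at 0.23 ± 0.29 and 0.0088 ± 0.28. Both lay in a group of 5 genes below it in both IFN-beta libraries with SPT6 siRNA, with Pdia4, Herpud1 and Trib3, against 34.6% of genes. Pdia4 and Herpud1 were below it under both siRNAs (22.8% of genes), and were the 2 below it with NC siRNA (38.1%), at -0.18 ± 0.21 and -0.27 ± 0.21 with SPT6 siRNA and at -0.11 ± 0.21 and -0.095 ± 0.21 with NC siRNA. Hyou1 stood at 0.079 ± 0.20 with SPT6 siRNA and 0.29 ± 0.20 with NC siRNA. Trib3 was at -0.34 ± 0.75 with SPT6 siRNA and -0.55 ± 0.70 with NC siRNA. The NC siRNA value was 0.080 without NC siRNA IFN-beta replicate 1 and -1.75 without replicate 2.

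**Figure D3:**
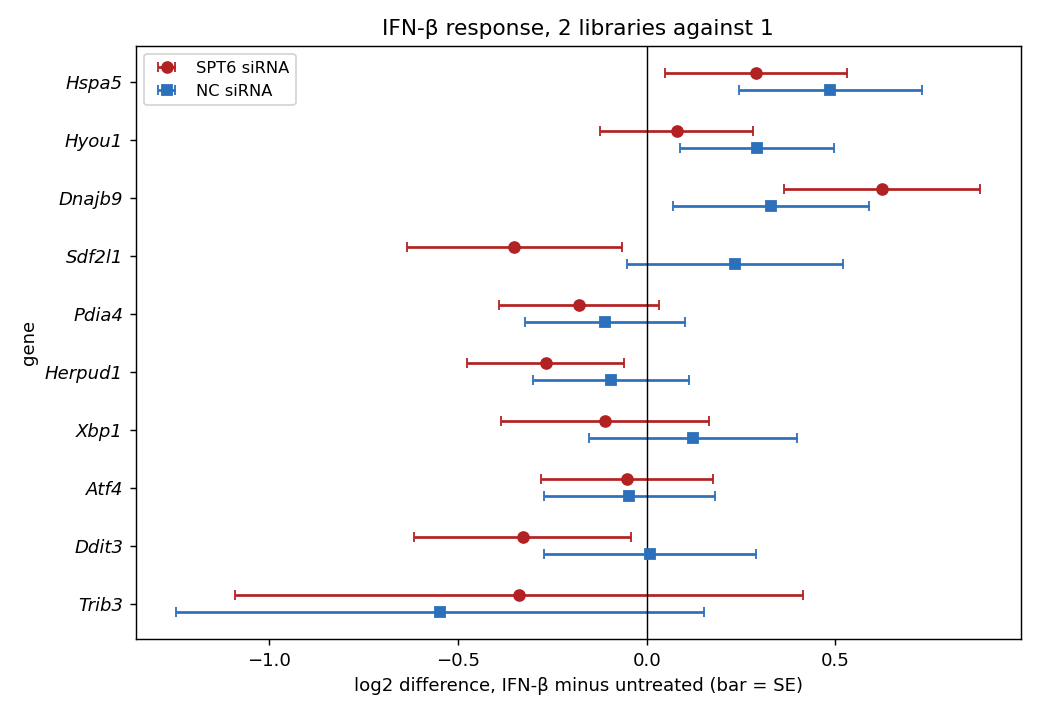
Log2 difference of IFN-beta minus untreated (x axis; bar, SE) for each gene (y axis), red circles with SPT6 siRNA and blue squares with NC siRNA, each over 2 libraries against 1. No gene passed the test; the values run from -0.35 to 0.62 with SPT6 siRNA and from -0.55 to 0.49 with NC siRNA.

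The wider pathway was read from 56 further genes in 5 lists, of which 54 were tested, Derl3 and Gdf15 being too low. These lists were also chosen with earlier results known, so their shares set beside all genes are descriptive only. With SPT6 siRNA against NC siRNA under IFN-beta none was called, 6 were higher and 3 lower at an unadjusted p under 0.05, and the median was -0.11 with 36 of 54 below 0 (52% of all genes were). Untreated, the same 54 genes had a median of 0.025 with 23 below 0, against 52.2% of all genes. With IFN-beta the median was 0.0023 without SPT6 siRNA replicate 2, -0.018 without NC siRNA replicate 1 and -0.21 without SPT6 siRNA replicate 1. Of all genes, 7.36% were higher and 4.31% lower at that p.

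Of 6 stress sensors and their proteases the ATF6 gene stood out. Atf6 had 218 and 272 CPM with SPT6 siRNA, against 123 and 129 CPM with NC siRNA, a log2 difference of 0.96 ± 0.18 (SE; adjusted p = 0.247). In untreated cells it had 175 CPM with SPT6 siRNA and 107 CPM with NC siRNA. Ern1, the gene of IRE1, was at 0.46 ± 0.21 and Atf6b, the gene of a relative of ATF6, at -0.23 ± 0.18.

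Of 15 chaperones and folding enzymes, 3 were higher at an unadjusted p under 0.05 (7.36% of all genes were), and the list's median was -0.032. Without SPT6 siRNA IFN-beta replicate 2 that median was 0.11, without NC siRNA IFN-beta replicate 1 it was 0.069, without NC siRNA IFN-beta replicate 2 it was 0.021, and without SPT6 siRNA IFN-beta replicate 1 it was -0.081. Untreated it was 0.16, with 13 of the 15 above 0, where 6288 of 13168 genes in all were. Ero1l, an ER oxidase, stood at 143 and 148 CPM with SPT6 siRNA, against 85.5 and 102 CPM with NC siRNA. Dnajb11, a BiP co-chaperone like Dnajb9, stood at 177 and 180.1 CPM with SPT6 siRNA, against 118 and 122 CPM with NC siRNA. The third was Uggt1, a glycoprotein folding sensor (0.64 ± 0.20, SE). Of 11 tested degradation and transport genes, Derl1 was higher (0.43 ± 0.17) and Sec24d, of the vesicle coat, lower (-0.47 ± 0.16), with a median of -0.11. The median was 0.10 without NC siRNA replicate 1, 0.015 without SPT6 siRNA replicate 2, -0.17 without NC siRNA replicate 2 and -0.22 without SPT6 siRNA replicate 1, and untreated it was 0.012. Sec61a1, of the translocation channel, was at -0.29 ± 0.18.

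Of 19 tested ATF4 targets 16 were below 0 (52% of all genes were), with a median of -0.41. That median was -0.17 without NC siRNA IFN-beta replicate 2, the library in which the list stood high, and -0.60 without NC siRNA IFN-beta replicate 1. Each time 14 of the 19 were below 0, against 48.7% and 48.5% of all genes. Replicate 1 of SPT6 siRNA against replicate 1 of NC siRNA gave -0.20, and the replicate 2 libraries gave -0.51. Untreated, the median was -0.19 with 13 of the 19 below 0, against 52.2% of all genes. Asns, the asparagine synthetase gene, stood at 156 and 141 CPM with SPT6 siRNA, against 180 and 253 CPM with NC siRNA (log2 difference -0.54 ± 0.21, SE; adjusted p = 0.401). Atf5, a related transcription factor gene, was at -0.57 ± 0.21. Atf3 went against the list, at 5.51 and 7.57 CPM with SPT6 siRNA, against 1.88 and 2.73 CPM with NC siRNA (1.49 ± 0.37). None of the 3 passed the test over all genes.

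PERK is 1 of several kinases of eIF2, and the others include PKR (Eif2ak2), itself known to be induced by interferon. With NC siRNA, Eif2ak2 stood at 547 and 392 CPM with IFN-beta, against 78.3 CPM untreated, a log2 difference of 2.58 ± 0.42 (SE; adjusted p = 0.15). With SPT6 siRNA it stood at 449 and 264 CPM with IFN-beta, against 78.5 CPM untreated (2.18 ± 0.41). Eif2ak1 and Eif2ak4 differed between the siRNAs under IFN-beta by 0.40 ± 0.18 and -0.31 ± 0.17, and Eif2ak2 by -0.40 ± 0.30. In the response with NC siRNA the smallest p of the other lists belonged to Stc2 (1.13 ± 0.48), Creld2 (0.44 ± 0.22), Sec61a1 (0.28 ± 0.22) and Ern1 (0.40 ± 0.26), none of them called.

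**Figure D4:**
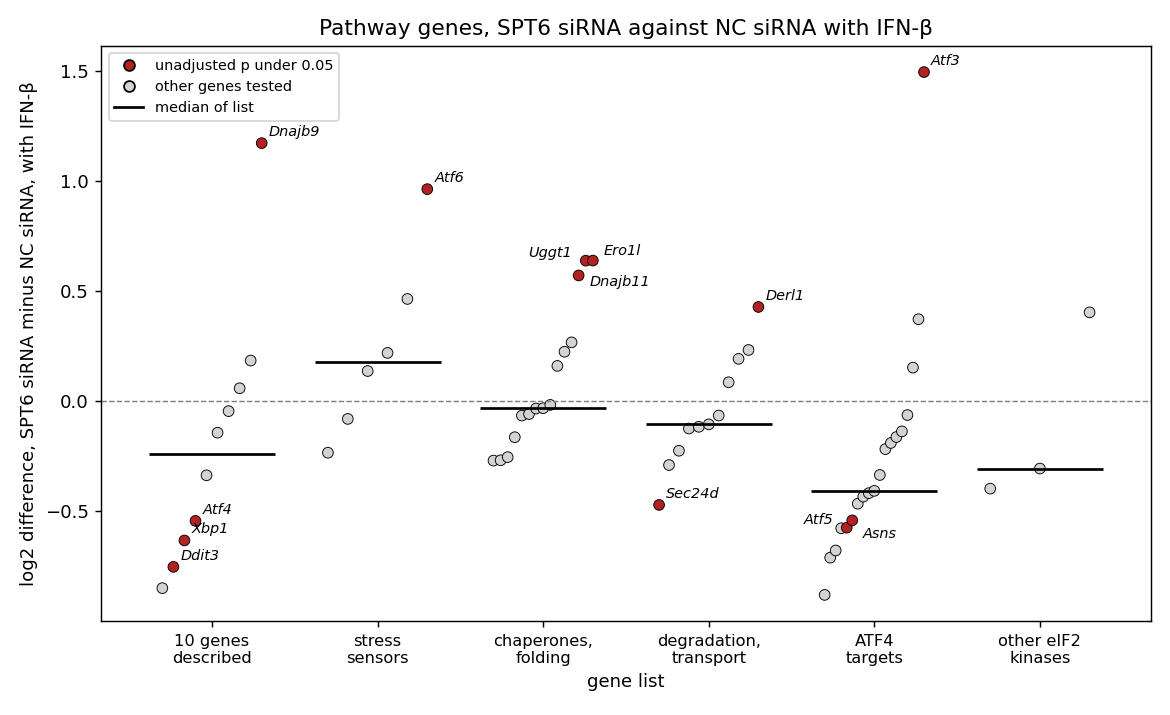
Log2 difference of SPT6 siRNA minus NC siRNA with IFN-beta (y axis) for every tested gene of the set and of 5 pathway lists (x axis), with list medians as lines and genes at an unadjusted p under 0.05 in red and named. ATF4 targets have a median of -0.41 (-0.17 without NC siRNA IFN-beta replicate 2; -0.19 untreated) and chaperones one of -0.032 (0.16 untreated); no gene passed the test adjusted over all genes.

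Likeness of pattern was measured as the root mean square difference of log2 CPM, each gene less its own mean, over the 6 libraries against 9696 genes whose average log2 CPM reached 3. For Dnajb9 the nearest were Pvr (0.1), Tmbim4 (0.115) and Atf6 (0.153). For Hspa5 they were Mrpl44 (0.0573), Ripk1 (0.0582) and Mfsd1 (0.0587), and for Ddit3 Spag7 (0.0381), Tead2 (0.0404) and Hmgxb4 (0.0733). Within the set the closest pair was Atf4 and Ddit3 (0.115), followed by Hspa5 and Hyou1 (0.15).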

How the data were processed

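Libraries were prepared from total RNA with the Ovation SP Ultralow kit and read from both ends on an Illumina sequencer, per the labels' protocols. The authors deposited whole-number counts per gene symbol without normalisation. Tools named in the submitters' processing notes, with no role, are TopHat2 2.1.0, HTSeq 0.6.1p1 and DESeq2, and the builds are mm10 and GRCm38. The sources used here give neither annotation nor strand setting; where genes overlap, reads cannot be assigned with certainty. The 5 lines naming no gene stayed out of library sizes; genes held 32.9% to 38.0% of each file's total and reads aligned to several places 27.9% to 31.3%. Depth set 8.34 to 16.8 counts per CPM.

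The count minimum was 10 in edgeR's filterByExpr, and scaling was by TMM. One edgeR 4.0.16 quasi-likelihood model (R 4.3.3) held 4 group means over 6 libraries, leaving 2 residual degrees of freedom, both within the IFN-beta groups. A gene was called at a Benjamini-Hochberg adjusted p under 0.05 over all tested genes, and an SE is the difference divided by the root of its F statistic. The steps were tested on counts simulated independently for each library, without an effect of replicate number. That test therefore does not bear on effects shared by a replicate number. CPM on the log2 scale used a prior count of 0.5. Gene positions and exon lengths are those of GENCODE M21, on GRCm38, and promoter windows those of RefSeq.

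The members and lists were chosen with earlier results of these data known. Genes named beside the members and Supt6 are the 3 of each pathway list with the smallest p under IFN-beta, the 1 with the smallest p in the NC siRNA response, and the 3 nearest in pattern to Hspa5, Dnajb9 and Ddit3. Replicates differed beyond sampling noise (chi-square per degree of freedom 36.9 with SPT6 siRNA and 41.9 with NC siRNA). Alternatives were RLE size factors, library size alone, no filter, DESeq2 1.42.0, a replicate block, leaving out each IFN-beta library, and, added after seeing the data, siRNA and treatment as 2 terms, and list medians by pair and with a library left out. Summed endothelial markers were at 1.60 to 5.91 CPM and epithelial markers at 0.247 to 0.957 CPM.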

Additional observations from a re-analysis of the deposited data

How the results depend on the processing

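The count of members called with SPT6 siRNA against NC siRNA under IFN-beta was 0 as reported. It was 1 without the filter on low counts and 1 with DESeq2 (Dnajb9 each time). The fit with siRNA and treatment as 2 terms took the siRNA difference over all 6 libraries, a different comparison. That fit called 1 member (Dnajb9) and 119 genes in all. With the replicate number as a block, the count under IFN-beta was 5 (Dnajb9, Xbp1, Atf4, Ddit3 and Trib3). With that block each IFN-beta response called 1 (Trib3). The block takes a further coefficient from the 2 residual degrees of freedom of the main model. Both untreated libraries are replicate 1, so what is left comes only from how alike the 2 IFN-beta pairs are. For Trib3 these pairs gave log2 differences of 0.089 (replicate 1) and -1.27 (replicate 2). For the other members called under IFN-beta both pairs had the same sign. The labels do not say what a shared number means; over genes, the deviations of the replicate 1 libraries from their group means correlated at 0.503. The block called 2638 of 13185 genes in the comparison under IFN-beta, against 0 as reported, 57 with DESeq2 and 66 without the filter. It called 957 and 545 in the responses with NC and SPT6 siRNA, against 18 and 6. These were 208 and 131 with DESeq2, 77 and 46 without the filter and 18 and 12 scaled by library size only. With 1 library left out they ran from 16 to 52 and from 9 to 25. In the difference of SPT6 effects the block called 4 genes and no member. The cause was not tested. Scaling by library size only turned the sign of Hyou1 under SPT6 siRNA (0.037), Ddit3 in the NC siRNA response (-0.082) and Atf4 in the difference of SPT6 effects (0.026). In the 2-term fit Hyou1 stood at 0.025 and Sdf2l1 at 0.048. That fit takes in the untreated pair, at 0.17 for Hyou1 and 0.44 for Sdf2l1. The block turned Xbp1 in the SPT6 siRNA response (0.085). With 1 library left out, values that changed sign were, for SPT6 siRNA with IFN-beta, Hyou1 (-0.16 to 0.042), Pdia4 (-0.081 to 0.17) and Trib3 (-1.47 to 0.35). In the SPT6 siRNA response they were Hyou1 (-0.024 to 0.16), Xbp1 (-0.31 to 0.046) and Atf4 (-0.20 to 0.057). In the NC siRNA response they were Xbp1 (-0.13 to 0.33), Atf4 (-0.14 to 0.030), Ddit3 (-0.10 to 0.10) and Trib3 (-1.75 to 0.080). In the difference of SPT6 effects they were Pdia4 (-0.23 to 0.021), Xbp1 (-0.46 to 0.031), Atf4 (-0.18 to 0.10) and Trib3 (-0.40 to 1.41). Trib3 and Sdf2l1 rest on 55 to 318 counts per library.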
